A study of Mus musculus with 84 samples.

Results

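The 36 mouse genes described here carry out and control the synthesis of cholesterol and fatty acids. They were taken by gene symbol from the 25494 rows of a table of RNA-seq counts, and comprised 17 enzymes of cholesterol synthesis, 8 genes of sterol regulation and 11 enzymes of fatty acid synthesis, elongation and desaturation. In all, 35 of the 36 passed the filter on low counts and were tested, among 15893 genes tested. The exception was Hmgcs1, the enzyme that makes HMG-CoA, which had 2 rows on an unplaced fragment of chromosome 13 and was listed at 0 in all 12 libraries. Of the 160 rows on unplaced fragments 130 were at 0 in every library, so the value of Hmgcs1 is no measure of its expression.

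All animals were C57BL/6 mice. For RNA-seq, male germ-free mice about 6 weeks old received by gavage, for 5 weeks, stool from male donors kept on a high fat diet (60% fat) or a low fat diet (10% fat), while the recipients themselves ate one or the other diet. The 4 groups are named by the diet of the recipient (HFD or LFD) and then by the bacteria given (HFB from high fat diet donors, LFB from low fat diet donors), so HFDHFB, LFDHFB, HFDLFB and LFDLFB, with 3 libraries each. No group without bacteria was analysed here. Peak lists of H3K27ac, an acetylation found at active promoters and enhancers, came from 11 recipient libraries (2 in HFDHFB, 3 in each other group). A separate cohort of males and females ate HFD or LFD from 6 weeks of age for 20 weeks, with 3 libraries for each sex and diet of H3K27ac and of H3K4me1, a methylation found at enhancers, and 2 libraries for each diet of the transcription factor HNF4a in males. RNA came from cells scraped off the colon, whereas chromatin came from epithelium released with EDTA.

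Cholesterol is built from acetyl-CoA by way of mevalonate, farnesyl diphosphate, squalene and lanosterol. When sterols in the endoplasmic reticulum run low, SCAP escorts the SREBP proteins, encoded by Srebf1 and Srebf2, to the Golgi, where the site-specific proteases encoded by Mbtps1 and Mbtps2 release their active part. INSIG proteins hold SCAP back when sterols are plentiful, and active SREBPs raise transcription of the enzymes of both pathways. SREBP binding elements often act together with CCAAT boxes, which bind NF-Y, and GC boxes, which bind Sp1. In fatty acid synthesis ACLY and ACSS2 supply acetyl-CoA, ACACA and FASN build palmitate, and the ELOVL, SCD and FADS enzymes lengthen and desaturate it. The colon epithelium makes sterols for its own renewal, and SCD1 and FASN are abundant in fat tissue.

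The promoters of 6 genes are printed to show the CCAAT and sterol element matches described after them. Each is the 250 bases before the start of the gene locus deposited with the counts, on build mm9, 5′ to 3′ on the strand of the gene. Capitals mark matches to CCAAT on either strand (ATTGG on the printed strand when reversed) and to TCACNCCA, a shortened core of the sterol regulatory element, on either strand.
Sqle, chr15:59146397-59146646, plus strand: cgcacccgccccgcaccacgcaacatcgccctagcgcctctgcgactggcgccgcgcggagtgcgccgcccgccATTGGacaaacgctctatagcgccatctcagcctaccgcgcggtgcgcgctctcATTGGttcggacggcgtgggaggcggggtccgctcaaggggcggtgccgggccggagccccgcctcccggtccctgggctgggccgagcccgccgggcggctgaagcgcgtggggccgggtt
Mvk, chr5:114894028-114894277, plus strand: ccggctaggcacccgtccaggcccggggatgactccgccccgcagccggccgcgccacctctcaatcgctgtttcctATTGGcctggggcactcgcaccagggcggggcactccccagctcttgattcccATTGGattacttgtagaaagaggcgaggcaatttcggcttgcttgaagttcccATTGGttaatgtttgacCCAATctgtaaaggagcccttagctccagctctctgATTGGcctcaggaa
Fdft1, chr14:63798416-63798665, minus strand: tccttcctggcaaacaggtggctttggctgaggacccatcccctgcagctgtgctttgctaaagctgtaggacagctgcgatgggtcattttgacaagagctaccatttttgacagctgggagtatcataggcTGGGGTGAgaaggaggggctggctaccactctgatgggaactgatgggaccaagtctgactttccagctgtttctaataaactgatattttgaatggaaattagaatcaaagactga
Srebf2, chr15:81977449-81977698, plus strand: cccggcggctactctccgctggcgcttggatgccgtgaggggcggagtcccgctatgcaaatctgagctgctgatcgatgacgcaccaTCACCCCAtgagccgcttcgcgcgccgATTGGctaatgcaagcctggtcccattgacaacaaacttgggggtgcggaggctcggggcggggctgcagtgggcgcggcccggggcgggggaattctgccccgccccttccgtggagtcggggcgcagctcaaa
Fasn, chr11:120685862-120686111, minus strand: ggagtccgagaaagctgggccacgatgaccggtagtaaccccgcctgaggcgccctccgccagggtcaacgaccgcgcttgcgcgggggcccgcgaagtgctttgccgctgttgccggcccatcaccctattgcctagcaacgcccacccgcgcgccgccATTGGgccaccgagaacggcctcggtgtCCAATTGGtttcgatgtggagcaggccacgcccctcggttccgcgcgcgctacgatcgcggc
Scd1, chr19:44482200-44482449, minus strand: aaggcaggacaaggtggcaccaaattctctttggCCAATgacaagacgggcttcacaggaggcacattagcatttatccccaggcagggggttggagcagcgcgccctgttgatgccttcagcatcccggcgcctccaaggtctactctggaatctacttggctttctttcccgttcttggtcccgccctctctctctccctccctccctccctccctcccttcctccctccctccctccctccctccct

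Over the 300 bases from 250 before to 50 after the start, CCAAT was found in 23 of 35 promoters of these genes (65.7%) and in 37.3% of the 15864 promoters of tested genes. By role, it was in 13 of 16 promoters of cholesterol synthesis, 4 of 8 of sterol regulation and 6 of 11 of fatty acid synthesis. Mvk, mevalonate kinase, had 5 matches, and in Fasn 2 of the 3 matches overlapped head to head. The longer sterol element core TCACNCCAC was in none of the 35 and in 1.1% of tested promoters, and TCACNCCA was in 2 (5.71%), Fdft1 at −117 and Srebf2 at −162, against 3.62%. GGGCGG, a GC box, was in 23 of 35 (65.7%) against 60.1%. These are matches of letters in a short window whose base composition was not matched between sets. The window follows the deposited start, which need not be the start used in the colon. Acaca, Pmvk and Insig2 had no H3K27ac within 1 kb of it in any of the 12 long-term libraries. Sterol elements outside the window were not searched for.

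The 12 RNA libraries held 39904191 to 48026846 counts. Summed levels of the 8 epithelial markers lay between 11020 and 16670 counts per 1000000 (CPM), so the labelled epithelium was present throughout, but markers of other tissues were present too: the sum of 8 smooth muscle markers ranged from 1099 to 7053 CPM, that of 8 mesothelial markers from 49.8 to 505 CPM and that of 8 adipocyte markers from 29.9 to 2779 CPM. LFDHFB replicate 3 stood apart from the other libraries of its group, with a chi-square per gene of 384 and 388 against them, where all other pairs within a group gave 43.5 to 160. In such bulk samples fewer cells of a type and less RNA per cell cannot be told apart. Nothing in the labels says that replicates came from separate animals, so p-values cover only the spread between these libraries.

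Per kb of exon, Scd2, a stearoyl-CoA desaturase, had the highest mean of the 35 genes at 167 CPM per kb (range over libraries 78.9 to 252). Fads2, the delta-6 desaturase, followed at 115 CPM per kb, Scd1 at 86.7, Fdps, which makes farnesyl diphosphate, at 81.5 and Acly at 69.0. The range of Scd1 (6.31 to 433 CPM per kb) spanned that of all its neighbours in this order, so its place is not fixed. The lowest were Mbtps2, the membrane protease of SREBP activation, at 1.44 CPM per kb, Acaca at 4.54, Hsd17b7 at 4.96 and Lss, lanosterol synthase, at 4.99. The length used was the union of all annotated exons of a gene, such as 10.787 kb for Lss and 1.508 kb for Fads2. It need not be the length of the transcript present, so the order depends on the annotation as well as on expression.

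The genes differed widely in how steady they were between libraries. The 8 sterol regulation genes were the steadiest, with a median ratio of highest to lowest library of 1.56 and a median SD within groups of 0.18 on the log2 scale. For the 16 cholesterol synthesis genes these were 1.93 and 0.283, close to the 1.97 and 0.284 of all genes tested. The 11 fatty acid genes spread further, with medians of 3.48 and 0.58. Scd1 led with a ratio of 68.6 and an SD of 1.58, at the 99.2 percentile of all genes, followed by Me1, the cytosolic malic enzyme that supplies NADPH, with a ratio of 13.7 and an SD of 1.24.

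**Figure D1:**
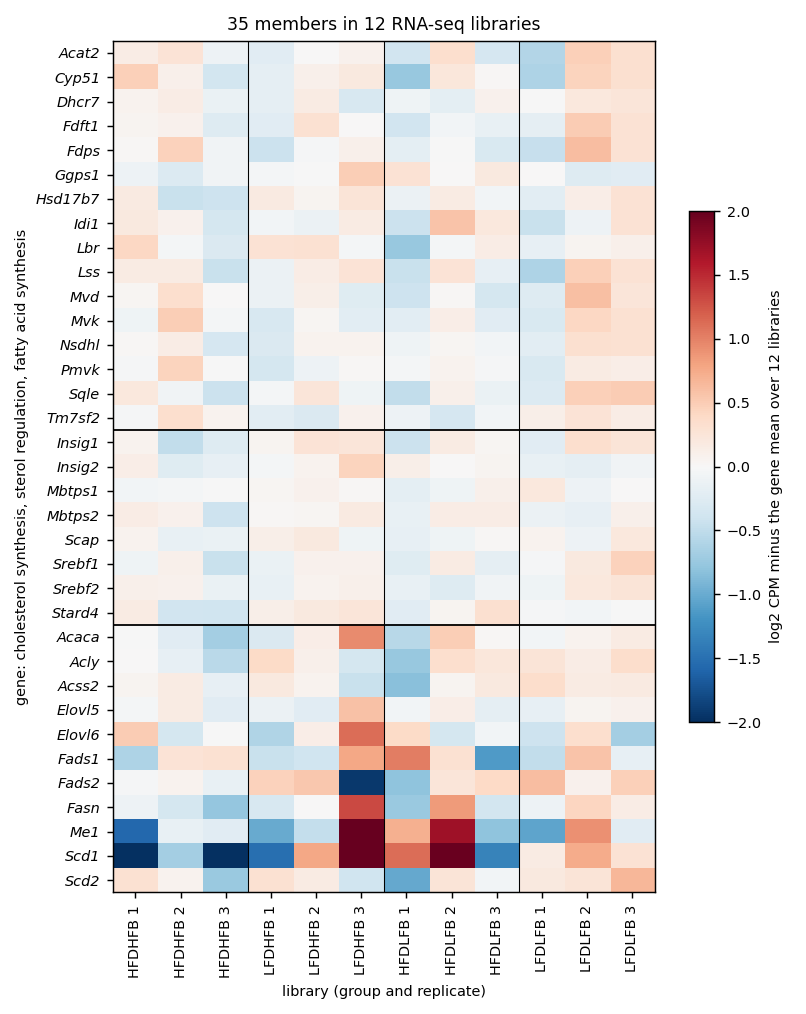
Heat map of the 35 tested genes (rows, by role) in the 12 RNA libraries (columns, by group), coloured by log2 (CPM + 0.05) minus the mean of the gene, with colours saturating at 2 in each direction. The cholesterol synthesis rows are mostly low in HFDLFB replicate 1 (15 of 16 below their mean) and high in LFDLFB replicate 3 (15 of 16 above), and the strongest colours are those of Scd1 and Me1.

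Within a library the cholesterol synthesis genes tended to lie on one side of their own means. In HFDLFB replicate 1, 15 of 16 were below the mean of the gene (median −0.29, log2), and in LFDLFB replicate 3, 15 of 16 were above it (median 0.29). Libraries of the same group could lie on opposite sides, since in LFDLFB replicate 1, 14 of 16 were below (median −0.26) and in replicate 2, 14 of 16 were above (median 0.37). The median of all genes tested was within 0.031 of 0 in every library.

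The first question was whether the diet of the recipient, averaged over both kinds of bacteria, changed these genes. None of the 35 passed an adjusted p of 0.05 in edgeR's quasi-likelihood test, nor did any of the 15893 genes (0% of genes called). At an unadjusted p below 0.05 there were 0 of the 35 and 468 of all genes (2.94%). DESeq2 called 0 of the 35 and 6 of the 19442 genes it tested, the base of all its counts here. The adjusted p of each of the 35 was 1. The estimates for HFD minus LFD were below 0 for 30 of the 35 genes, with a median log2 difference of −0.14 against 0 for all genes tested. With single libraries left out the median of the 35 ran from −0.17 to −0.07. By role, estimates were below 0 for 12 of 16 cholesterol synthesis genes (median −0.07), 8 of 8 sterol regulation genes (median −0.14) and 10 of 11 fatty acid genes (median −0.27). No gene of the 35 had HFD and LFD libraries that did not overlap, and 0.120% of all genes did. Some marker lists of cell types had estimates on one side in the same comparison, and others were mixed. The 8 epithelial markers were below 0 in 8 of 8, with a median of −0.14, the median of the 35, whereas the mesothelial markers were above 0 in 7 of 7 (median 0.57), the fibroblast markers in 8 of 8 (median 0.33) and the adipocyte markers in 8 of 8 (median 0.90). Absorptive colonocyte markers were lower in 7 of 8 (median −0.17) and smooth muscle markers higher in 7 of 8 (median 0.20). The mixed lists were goblet and proliferation (5 of 8 lower in each), endothelium (6 of 8 lower), leukocyte (6 of 8 higher) and enteric neuron and glia (4 of 8 higher). The part of cell composition in the small differences of the 35 genes was not tested.

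The same comparison was made within each kind of bacteria. With LFB, edgeR called 0 of the 35 and 0% of all genes in HFDLFB against LFDLFB, and DESeq2 called 0 of the 35 and 9 of all genes. At an unadjusted p below 0.05 there were 4 of the 35, all lower with HFD, among 847 of all genes (5.33%), 279 of which were lower. The smallest adjusted p of the 35 was 0.881. With HFB, edgeR called 0 of the 35 and 0% of all genes in HFDHFB against LFDHFB, with 1 of the 35 and 1186 of all genes (7.46%) at an unadjusted p below 0.05, and DESeq2 called 1 of the 35, Scd1, and 126 of all genes. The smallest adjusted p of the 35 in edgeR was 0.448, for Scd1. Groups did not overlap for 3 of the 35 (8.57%) with LFB against 11.7% of all genes, and for 2 of the 35 (5.71%) with HFB against 11%, shares below those of all genes.

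Among the enzymes of cholesterol synthesis, Sqle, squalene epoxidase, a rate-controlling enzyme of the sterol branch, was at 148, 122 and 94.6 CPM in HFDHFB, 124, 150.4 and 120.0 CPM in LFDHFB, 90.8, 137 and 116 CPM in HFDLFB and 105, 178 and 181 CPM in LFDLFB (replicates 1, 2 and 3 in turn, as throughout). The lowest library was in HFDLFB and the highest in LFDLFB, but the 2 groups overlapped. The log2 difference between HFDLFB and LFDLFB was −0.43 (SE 0.24, adjusted p = 0.881 in edgeR), and between HFDHFB and LFDHFB it was −0.12 (SE 0.23).

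Fdft1, squalene synthase, the first enzyme committed to sterols, was at 131, 134 and 106 CPM in HFDHFB, 108, 157 and 128 CPM in LFDHFB, 96.5, 122 and 114 CPM in HFDLFB and 112, 179.6 and 155 CPM in LFDLFB. Of the 3 LFDLFB libraries 2 were above all the HFDLFB libraries and the other was not. The difference between these groups was −0.43 (SE 0.19, adjusted p = 0.881 in edgeR), that between HFDHFB and LFDHFB was −0.08 (SE 0.19), and averaged over bacteria it was −0.25 (SE 0.13).

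In HFDLFB against LFDLFB, 14 of the 16 cholesterol synthesis genes had lower estimates, with a median of −0.23. Over all 35 genes the median of this comparison was −0.19. With single libraries left out it ran from −0.25 to −0.05, the latter without HFDLFB replicate 1. The 8 epithelial markers were lower there too, in 8 of 8 with a median of −0.24, with summed levels of 11020 to 14230 CPM in HFDLFB and 15070 to 15670 CPM in LFDLFB. Goblet cell markers were lower in 7 of 8 (median −0.54) and proliferation markers in 8 of 8 (median −0.49). Absorptive colonocyte markers were lower in 6 of 8 (median −0.12), and so were smooth muscle markers (median −0.18). Mesothelial markers were higher in 7 of 7 (median 1.58), at 97.5 to 505 CPM against 57.1 to 209 CPM. The median of the cholesterol genes was no further from 0 than that of the epithelial markers, and the part of cell composition in their difference was not tested. Besides Fdft1, those with an unadjusted p below 0.05 were Mvd, mevalonate diphosphate decarboxylase (−0.47, SE 0.21), and Tm7sf2, a sterol reductase (−0.33, SE 0.14), both at an adjusted p of 0.881 in edgeR. Tm7sf2 was at 21.5, 27.4 and 22.8 CPM in HFDHFB, 18.7, 17.9 and 22.99 CPM in LFDHFB, 20.4, 17.3 and 21.02 CPM in HFDLFB and 23.5, 26.2 and 24.1 CPM in LFDLFB. Its HFDLFB libraries were all below those of LFDLFB, whereas with HFB the diet groups overlapped and the estimate was above 0 (0.27, SE 0.14). With HFB, 8 of the 16 genes were lower and 8 higher (median 0.03), and 5 of 8 epithelial markers were lower (median −0.05). Absorptive colonocyte markers were lower there in 7 of 8 (median −0.33) and goblet markers higher in 6 of 8 (median 0.35). Proliferation (median 0.23) and smooth muscle markers (0.53) were higher in 8 of 8. Endothelial (−0.29) and adipocyte markers (−1.25) were lower in 8 of 8, and mesothelial markers in 7 of 7 (−0.60). Fibroblast, leukocyte and enteric neuron and glia markers were mixed.

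The remaining cholesterol genes had smaller estimates than Fdft1 on the average over bacteria, though with LFB alone that of Mvd was larger. Averaged over bacteria the estimates of Lss, Cyp51, Fdps, Idi1, Mvd, Mvk, Pmvk, Dhcr7, Nsdhl, Hsd17b7, Acat2, Tm7sf2, Lbr and Ggps1 lay between −0.22 (Hsd17b7) and 0.14 (Pmvk), with no unadjusted p below 0.05. Ggps1, which makes geranylgeranyl diphosphate for protein prenylation, a branch away from sterols, went the other way within LFB. It was at 27.6, 24.3 and 28.02 CPM in HFDHFB, 28.8, 29.2 and 41.4 CPM in LFDHFB, 36.02, 29.6 and 33.6 CPM in HFDLFB and 29.5, 24.7 and 25.3 CPM in LFDLFB. All HFDLFB libraries were above all LFDLFB libraries (0.32, SE 0.15) and all HFDHFB libraries were below all LFDHFB libraries (−0.32, SE 0.15), with no call in edgeR.

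Among the regulators, Srebf2, which encodes the SREBP that chiefly drives cholesterol synthesis, was at 216, 215 and 183 CPM in HFDHFB, 183, 212 and 217 CPM in LFDHFB, 182, 169 and 191 CPM in HFDLFB and 189, 234 and 242 CPM in LFDLFB. It varied little, and the HFDLFB libraries reached into the range of LFDLFB only at their upper end. The difference between HFDLFB and LFDLFB was −0.29 (SE 0.13, adjusted p = 0.881 in edgeR), and between HFDHFB and LFDHFB it was 0.00 (SE 0.13).

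Srebf1, whose products chiefly drive fatty acid synthesis, was at 75.3, 85.9 and 58.6 CPM in HFDHFB, 72.7, 85.4 and 85.4 CPM in LFDHFB, 67.8, 89.98 and 70.7 CPM in HFDLFB and 78.8, 92.2 and 111 CPM in LFDLFB. The groups overlapped, with the single highest library in LFDLFB and the lowest in HFDHFB. Averaged over bacteria the difference was −0.22 (SE 0.12), and it was −0.30 (SE 0.17) with LFB and −0.15 (SE 0.17) with HFB.

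Insig1, itself a target of the SREBPs and a brake on them, was at 129.8, 87.9 and 103 CPM in HFDHFB, 128, 149.7 and 147 CPM in LFDHFB, 91.9, 138 and 127 CPM in HFDLFB and 106, 156 and 149 CPM in LFDLFB. The lowest LFDHFB library (128 CPM) was above the lowest of each other group, and all diet groups overlapped. Averaged over bacteria the difference was −0.30 (SE 0.14, 95% interval −0.61 to 0.00, adjusted p = 1 in edgeR), the smallest p of the 35 genes in that comparison. With HFB alone it was −0.41 (SE 0.20) and with LFB −0.20 (SE 0.20).

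Of the other regulators, Scap and Mbtps1 were the steadiest of the 35 genes, with ratios of highest to lowest library of 1.30 and 1.32. The HFDHFB libraries of Mbtps1 were all below those of LFDHFB, by −0.08 (SE 0.11). Insig2 was at 62.9, 48.8 and 51.4 CPM in HFDHFB, 56.3, 60.7 and 78.2 CPM in LFDHFB, 62.7, 57.9 and 59.6 CPM in HFDLFB and 51.99, 50.8 and 54.95 CPM in LFDLFB. The HFDLFB libraries of Insig2 were all above those of LFDLFB (0.19, SE 0.14). Stard4, a carrier of cholesterol between membranes, was lower in HFDHFB than in LFDHFB by −0.37 (SE 0.17), with 1 HFDHFB library inside the LFDHFB range.

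**Figure D2:**
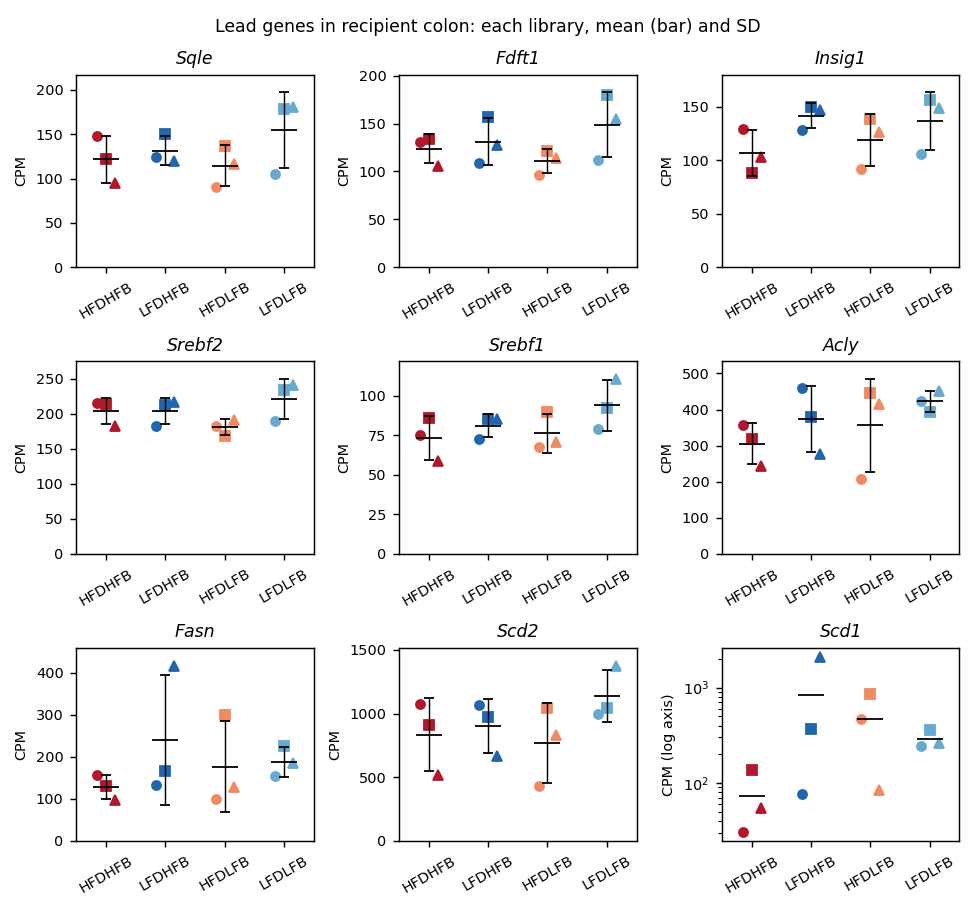
CPM of the lead genes in each of the 12 RNA libraries, by group, with a panel per gene. Circles, squares and triangles are replicates 1, 2 and 3, and bars are group means with SD, except for Scd1, which is on a log axis with no SD. Sqle and Fdft1 have their highest libraries in LFDLFB (181 and 180 CPM), and Scd1 runs from 30.5 CPM in HFDHFB replicate 1 to 2093 CPM in LFDHFB replicate 3.

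In fatty acid synthesis, Fasn, the palmitate synthase, was at 156, 129.9 and 97.4 CPM in HFDHFB, 134, 167 and 416 CPM in LFDHFB, 100, 299.5 and 129 CPM in HFDLFB and 154, 225 and 185 CPM in LFDLFB. LFDHFB replicate 3 was the highest library and HFDLFB replicate 2 the next, so neither diet held the high values. The difference averaged over bacteria was −0.50 (SE 0.33), with −0.90 (SE 0.46) for HFB and −0.10 (SE 0.46) for LFB.

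Acly, ATP citrate lyase, which makes cytosolic acetyl-CoA, was at 357, 317 and 243 CPM in HFDHFB, 460.1, 379 and 278 CPM in LFDHFB, 208, 445 and 414 CPM in HFDLFB and 424, 394 and 450.0 CPM in LFDLFB. The lowest were HFDLFB replicate 1 and HFDHFB replicate 3, but the groups of both diets overlapped. Averaged over bacteria the difference was −0.27 (SE 0.19).

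Scd2, the highest of these genes per kb of exon, was at 1075, 914 and 518 CPM in HFDHFB, 1069, 971 and 664 CPM in LFDHFB, 430.0, 1046 and 834 CPM in HFDLFB and 998, 1044 and 1376 CPM in LFDLFB. HFDLFB replicate 1 and HFDHFB replicate 3 were again the lowest, and the 3 LFDLFB libraries overlapped with those of HFDLFB only at 998 to 1046 CPM. The difference was −0.57 (SE 0.34) with LFB and −0.11 (SE 0.34) with HFB.

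Fads2 was at 156, 168 and 143 CPM in HFDHFB, 219.9, 231 and 41.7 CPM in LFDHFB, 91.05, 189 and 210.2 CPM in HFDLFB and 245, 169 and 221 CPM in LFDLFB. Its lowest library was LFDHFB replicate 3, the one in which Scd1, Fasn, Me1, Acaca, Elovl5 and Elovl6 were at their highest. Fads1, the delta-5 desaturase, ranged from 9.26 to 41.3 CPM and had its highest and its lowest library in the same group, HFDLFB. The estimates averaged over bacteria for Acaca, Acss2, Me1, Elovl5, Elovl6, Fads1 and Fads2 lay between −0.35 (Me1, SE 0.61) and 0.11 (Fads1, SE 0.36).

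**Figure D3:**
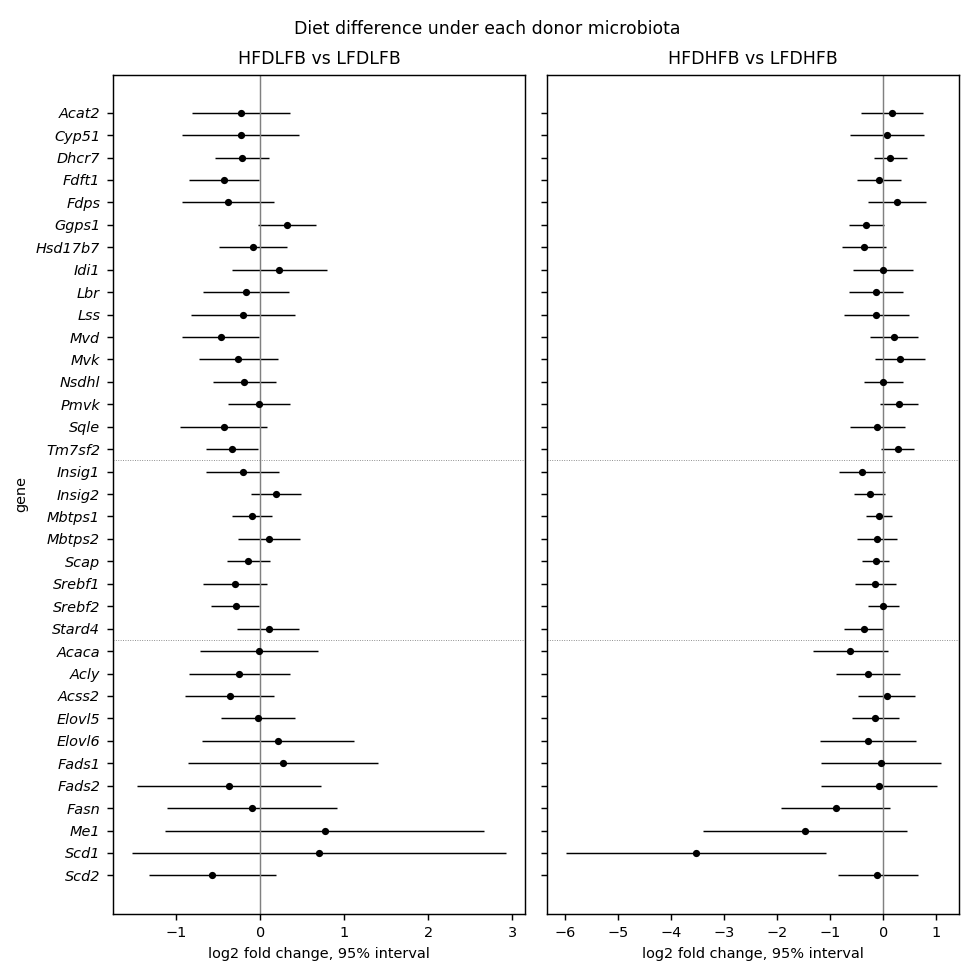
Estimated log2 differences with 95% intervals (edgeR) for the 35 genes, HFDLFB minus LFDLFB on one side and HFDHFB minus LFDHFB on the other, on different horizontal scales. With LFB 14 of 16 cholesterol synthesis genes lie below 0, with HFB 8 of 16, and the widest intervals are those of Scd1 and Me1.

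Scd1, the desaturase that makes oleate and palmitoleate, had the largest estimate of the 35 genes in 5 of the 6 comparisons, all but HFDLFB against LFDLFB, where Me1 had 0.77 (SE 0.86). Scd1 was at 30.5, 135 and 54.2 CPM in HFDHFB, 76.1, 369 and 2093 CPM in LFDHFB, 469, 853 and 85.2 CPM in HFDLFB and 242, 362 and 264 CPM in LFDLFB. The 3 HFDHFB libraries were among the 5 lowest of the 12, while LFDHFB replicate 3 was far above all others, and HFDHFB and LFDHFB overlapped. The difference between HFDHFB and LFDHFB was −3.53 (SE 1.12, 95% interval −5.98 to −1.08, adjusted p = 0.448 in edgeR), from means of 73.3 and 846 CPM. DESeq2 gave −3.57 for it, with an adjusted p of 0.0439.

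The size of that difference rested on 1 library. Without LFDHFB replicate 3 it was −1.60, and over all libraries left out in turn it ran from −4.32 to −1.60. Between HFDLFB and LFDLFB it had the other sign, 0.70 (SE 1.01), which became −0.05 without HFDLFB replicate 2. Averaged over bacteria it was −1.42 (SE 0.73, 95% interval −3.02 to 0.19), and −0.45 without LFDHFB replicate 3.

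Adipocyte markers varied strongly between the same libraries. The summed level of Adipoq, Plin1, Cidec, Fabp4, Retn, Cfd, Lep and Adrb3 was 29.9, 382 and 188 CPM in HFDHFB, 30.1, 326 and 901 CPM in LFDHFB, 1129, 2779 and 315 CPM in HFDLFB and 206, 172 and 86.4 CPM in LFDLFB. All HFDLFB libraries were above all LFDLFB libraries, and the median of the 8 markers was higher there by 3.21 on the log2 scale. When this summed level (log2) was added to the fit, an alternative chosen after seeing the data, its slope passed the test for 91 genes (0.573% of all genes) and for 1 of the 35, Scd1, at 0.81 log2 units per log2 unit (SE 0.12, adjusted p = 0.00925 in edgeR).

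Me1 had the next slope at 0.58 (SE 0.13, adjusted p = 0.107 in edgeR), while Fasn had 0.19 (adjusted p = 0.346) and Scd2 −0.08 (adjusted p = 0.592). With the marker level in the fit, edgeR called none of the 35 in any of the 6 comparisons. For Scd1, the diet difference was then nearly the same with both kinds of bacteria. HFDHFB minus LFDHFB was −2.13 (SE 0.48, adjusted p = 0.347 in edgeR), and HFDLFB minus LFDLFB turned from 0.70 to −2.09 (SE 0.57, adjusted p = 0.89 in edgeR). HFD minus LFD was −2.11 (SE 0.33, adjusted p = 0.786 in edgeR), against −1.42 (SE 0.73) without the marker level. The bacteria differences were near 0, with HFDHFB minus HFDLFB going from −2.68 to 0.02 (SE 0.59) and LFDHFB minus LFDLFB from 1.55 to 0.06 (SE 0.45), the 1.55 being −0.38 without LFDHFB replicate 3. Me1 also changed sign with LFB, from 0.77 to −1.16 (SE 0.65) for HFDLFB minus LFDLFB. Scd1 is expressed in adipocytes as well as in epithelium, and these libraries do not divide it between these tissues.

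**Figure D4:**
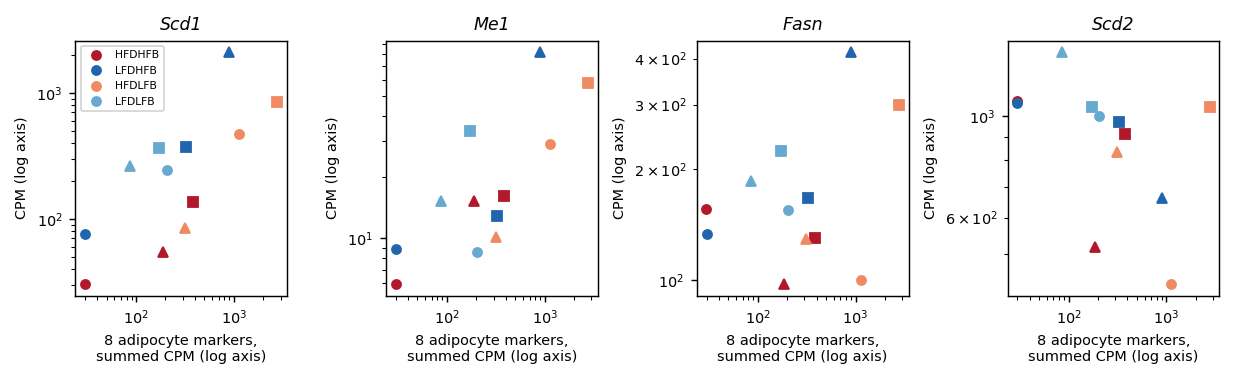
CPM of Scd1, Me1, Fasn and Scd2 (vertical, log axis) against the summed CPM of 8 adipocyte markers (horizontal, log axis) in the 12 RNA libraries, coloured by group, with marker shapes for replicates 1, 2 and 3. The marker sum runs from 29.9 to 2779 CPM, and LFDHFB replicate 3 lies above the other libraries in Scd1, Me1 and Fasn at a marker sum of 901 CPM.

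The second question was whether the bacteria given changed these genes under a fixed diet. edgeR called 0 of the 35 and 0% of all genes in HFDHFB against HFDLFB, and 0 of the 35 and 0% of all genes in LFDHFB against LFDLFB. At an unadjusted p below 0.05 these held 1 of 35 (Scd1) among 1441 genes (9.07%) and 1 of 35 (Insig2) among 592 genes (3.72%), and DESeq2 called 0 of the 35 in each, with 80 and 0 of all genes. The smallest adjusted p of the 35 in edgeR was 0.506 with HFD and 0.975 with LFD. These comparisons use the same libraries as the diet comparisons, so their estimates are not independent of them.

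With HFD, 12 of 16 cholesterol synthesis genes had higher estimates with HFB (median 0.16) and 7 of 11 fatty acid genes had lower ones (median −0.22). In that comparison 7 of 8 epithelial markers were higher (median 0.14), as were 8 of 8 goblet (0.53), 8 of 8 proliferation (0.71) and 8 of 8 smooth muscle markers (0.77). Lower were 6 of 8 absorptive colonocyte markers (−0.16) and 7 of 7 mesothelial markers (−2.37). Scd1 was lower by −2.68 (SE 1.08, adjusted p = 0.506 in edgeR), beside the adipocyte marker sums given above. Groups did not overlap for Ggps1, lower with HFB (−0.31, SE 0.15), and Tm7sf2, higher (0.29, SE 0.14), 2 of 35 (5.71%) against 13.0% of all genes. With LFD, 12 of 16 cholesterol synthesis genes had lower estimates with HFB (median −0.18), beside 7 of 8 epithelial markers (median −0.11) and 8 of 8 goblet markers (median −0.17). Absorptive colonocyte markers were lower in 4 of 8 (median 0). Groups did not overlap for 3 of 35 (8.57%, against 10.8% of all genes), with Insig2 (0.31, SE 0.14) and Stard4 (0.22, SE 0.17) higher and Tm7sf2 (−0.31, SE 0.14) lower.

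The difference of the diet effect between HFB and LFB was tested as an interaction. edgeR called 0 of the 35 and 0% of all genes, with 5 of 35 and 1794 of all genes (11.3%) at an unadjusted p below 0.05, and DESeq2 called 0 of the 35 and 73 of all genes. The smallest adjusted p of the 35 in edgeR was 0.386. The 5 were Tm7sf2 (0.60, SE 0.20), Ggps1 (−0.64, SE 0.22), Scd1 (−4.23, SE 1.49), Insig2 (−0.45, SE 0.19) and Mvd (0.68, SE 0.29). Estimates were above 0, that is less lowered or more raised by HFD with HFB than with LFB, for 13 of 16 cholesterol synthesis genes (median 0.31) and below 0 for 8 of 11 fatty acid genes (median −0.32). Estimates were above 0 for 7 of 8 epithelial (median 0.23), 8 of 8 goblet (0.73), 8 of 8 proliferation (0.83) and 7 of 8 smooth muscle markers (0.76). They were below 0 for 6 of 8 absorptive colonocyte (−0.27), 7 of 7 mesothelial (−2.29) and 8 of 8 adipocyte markers (−4.38). Epithelial lists thus lay on both sides of 0, and the part of these cell types in the list medians was not tested. For Scd1 the estimate was −0.04 with the adipocyte marker level in the fit and −2.30 without LFDHFB replicate 3.

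A further 40 tested genes of these pathways were followed as 3 lists, and none passed in edgeR in any of the 6 comparisons. Of 8 other genes of the cholesterol pathway, 8 had lower estimates with HFD, averaged over bacteria (median −0.19) and with LFB (median −0.27). They included Tmem97, a regulator of sterol handling (−0.68, SE 0.22, adjusted p = 0.881 in edgeR, with LFB). Of 19 other genes of lipid synthesis 11 were lower, averaged over bacteria (median −0.05), and of 13 genes of sterol sensing by LXR and sterol export 11 were lower (median −0.08). Thrsp, a lipogenic nuclear protein abundant in fat, had estimates near those of Scd1, with −3.11 (SE 1.26) for HFDHFB minus LFDHFB and a slope on the adipocyte marker level of 0.94 (adjusted p = 0.00863 in edgeR).

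Most promoters of these genes carried H3K27ac in every library. In the long-term cohort a peak lay within 1 kb of the start in all 12 libraries for 29 of 35 genes (82.9%), against 68.0% of genes tested, and in the recipients in all 11 libraries for 31 of 35 (88.6%), against 68.1%. H3K4me1 was within 1 kb in all 12 libraries for 29 of 35 (82.9%), against 71.4%. By role, H3K27ac in the long-term cohort was constant at 15 of 16 promoters of cholesterol synthesis, 7 of 8 of sterol regulation and 7 of 11 of fatty acid synthesis.

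Of the 6 genes without such a constant promoter peak in the long-term cohort, 4 were enzymes of fatty acid synthesis. Acaca, Pmvk and Insig2 had no H3K27ac within 1 kb of the deposited start in any of the 12 long-term libraries, but a region present in all 23 H3K27ac libraries lay 12.7 kb upstream, 1.9 kb downstream and 1.0 kb downstream of it. Fads1 was marked in 10 and Me1 in 11 of 12. Scd1 was marked in 6 of 12 long-term libraries, 1 of 3 in HFD males, 2 of 3 in LFD males, 1 of 3 in HFD females and 2 of 3 in LFD females, and in 11 of 11 recipients. The nearest region of Scd1 present in all 23 libraries was 15.8 kb downstream, at chr19:44461001-44466400.

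The peak lists hold positions and no heights, so the marks were compared by the length covered by peaks in each gene locus extended by 10 kb on both sides, with limma. None of the 35 genes passed an adjusted p of 0.05 in any of the 8 comparisons. Of all genes, limma called 1 (0.00596%) in HFDHFB against LFDHFB and 0% in the other 7. At an unadjusted p below 0.05 there were for H3K27ac 3 of 35 in males (8.57%, against 4.05% of all genes) and 1 in females (2.86% against 8.11%), and for H3K4me1 4 in males (11.4% against 4.49%) and 1 in females (2.86% against 5.39%). In recipients there were 4 in HFDHFB against LFDHFB (11.4% against 12%), 3 in HFDLFB against LFDLFB (8.57% against 11.5%), 2 in HFDHFB against HFDLFB (5.71% against 4.60%) and 1 in LFDHFB against LFDLFB (2.86% against 3.91%).

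H3K27ac at the Scd1 locus covered 3.0, 3.4 and 4.4 kb in HFD males and 6.0, 4.4 and 5.2 kb in LFD males. It covered 2.4, 4.6 and 3.0 kb in HFD females and 6.0, 4.2 and 4.4 kb in LFD females. In males the ranges touched at 4.4 kb, and in females 1 HFD library lay inside the LFD range. The difference between HFD and LFD was −1.60 kb in males (SE 0.72, adjusted p = 1 in limma) and −1.53 kb in females (adjusted p = 0.624 in limma).

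H3K4me1 at Scd1 covered 7.0, 9.0 and 7.2 kb in HFD males and 11.6, 10.2 and 10 kb in LFD males. The male groups did not overlap, with a difference of −2.87 kb (SE 0.82, adjusted p = 0.998 in limma). In females it was 7.6, 7.0 and 7.8 kb with HFD and 7.2, 9.0 and 8.8 kb with LFD, which overlapped. In recipients H3K27ac at Scd1 covered 4.8 and 4.8 kb in HFDHFB, 4.2, 4.8 and 4.6 kb in LFDHFB, 4.2, 5.4 and 3.8 kb in HFDLFB and 5.6, 5.6 and 4.6 kb in LFDLFB. Between HFDHFB and LFDHFB this length differed by 0.27 kb.

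Acss2, which makes acetyl-CoA from acetate, went the other way. H3K27ac at its locus covered 29.6, 32.1 and 28.2 kb in HFD females and 25.5, 22.9 and 19.5 kb in LFD females, groups that did not overlap (7.35 kb, SE 2.20, adjusted p = 0.528 in limma). In males it was 22.4, 24.0 and 28.4 kb with HFD and 29.1, 22.9 and 24.6 kb with LFD, which overlapped. In recipients given HFB it was 31.1 and 31.9 kb with HFD and 21.2, 21.7 and 24.8 kb with LFD (8.92 kb, SE 2.72, adjusted p = 0.245 in limma). With LFB the difference was 1.51 kb, and Acss2 RNA differed by 0.06 (SE 0.24, log2) with HFB.

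At Stard4 and Ggps1 the H3K27ac lengths of HFD-fed recipients were above those of LFD-fed recipients given the same kind of bacteria. At Stard4 it covered 11.8 and 15.2 kb in HFDHFB, 9.0, 8.6 and 8.6 kb in LFDHFB, 14.8, 14.2 and 12.2 kb in HFDLFB and 11.8, 7.8 and 8.4 kb in LFDLFB. Neither pair of diet groups overlapped, with differences of 4.77 kb with HFB (adjusted p = 0.245 in limma) and 4.40 kb with LFB (adjusted p = 0.298 in limma). At Ggps1 it covered 10.3 and 11.9 kb in HFDHFB and 7.4, 9.2 and 9.76 kb in LFDHFB (2.28 kb), groups that did not overlap either.

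With LFB, H3K27ac at Ggps1 covered 14.1, 12.4 and 14.5 kb in HFDLFB and 10.3, 10.1 and 9.0 kb in LFDLFB (3.85 kb, SE 1.04, adjusted p = 0.269 in limma), and without the flanking 10 kb the difference was −0.2 kb. The HFDHFB libraries held 107 and 132 Mb of H3K27ac peaks in all against 98.8 to 105 Mb in LFDHFB, and the median difference between them over all genes was 0.667 kb. Over the 35 genes the median was 0.8 kb, and −0.65 kb when each length was divided by the total of its library, against −0.088 kb for all genes. Either HFDHFB library decided it, since the median of the 35 was 1.67 kb without HFDHFB replicate 1 (1.2 kb for all genes) and −0.2 kb without replicate 2 (0.067 kb for all genes). The same division took the median of the 35 from 0.67 to −0.45 kb for diet with LFB and from 0.57 to −0.25 kb for H3K27ac in females, so the direction of these medians depends on the scaling.

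**Figure D5:**
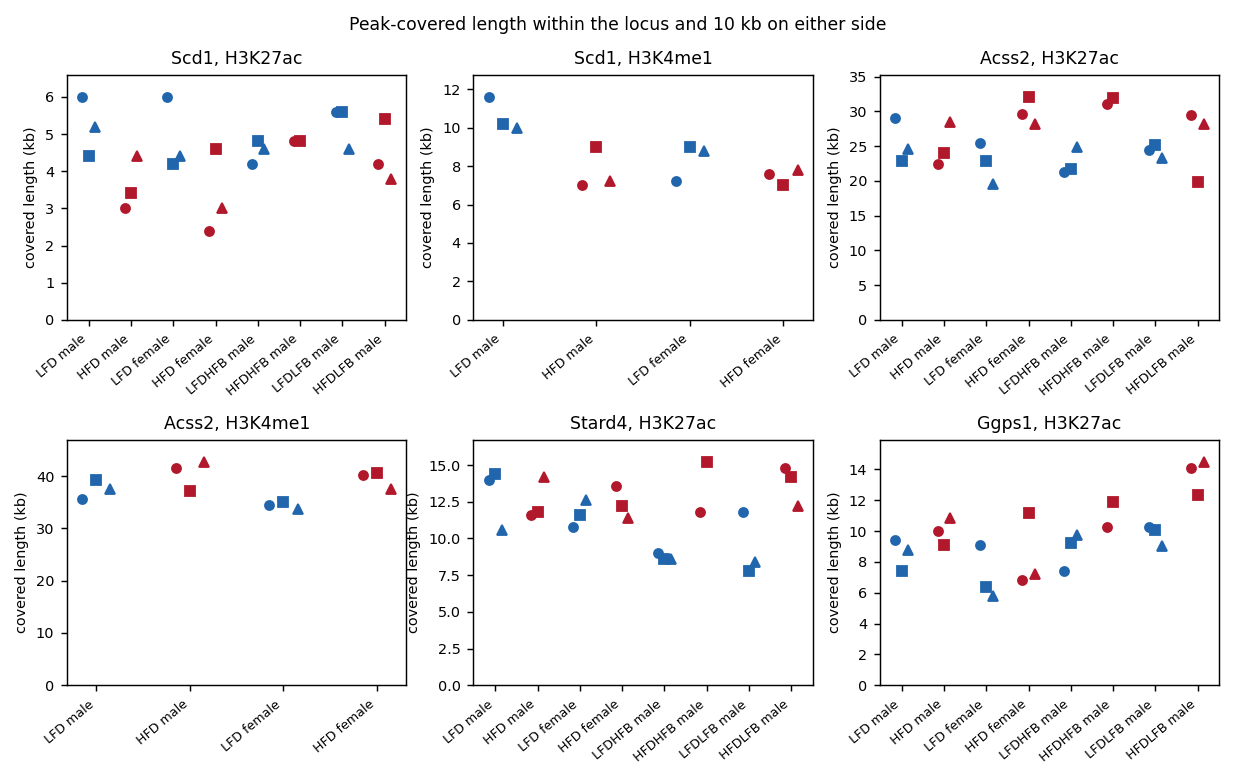
Length in kb covered by peaks in the locus extended by 10 kb, per library, for Scd1 and Acss2 (H3K27ac and H3K4me1) and for Stard4 and Ggps1 (H3K27ac), HFD in red and LFD in blue, with marker shapes for replicates. At Scd1 H3K4me1 the 3 HFD male libraries (7.0 to 9.0 kb) lie below the 3 LFD male libraries (10 to 11.6 kb). At Stard4 every HFD recipient lies at or above 11.8 kb, which is also the length in LFDLFB replicate 1.

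At 3 cholesterol enzymes, Lss, Fdft1 and Tm7sf2, H3K4me1 lengths in HFD males were all below those in LFD males. At Lss it covered 9.0, 8.8 and 7.8 kb with HFD and 13.0, 11.8 and 14 kb with LFD (−4.40 kb, SE 1.21, adjusted p = 0.998 in limma). At Fdft1 it covered 19.6, 20 and 21.4 kb with HFD and 29.4, 25.0 and 21.8 kb with LFD (−5.07 kb, SE 1.68). At Tm7sf2 the difference was −2.27 kb. Mvd went the other way for both marks, with H3K27ac of 8.51, 8.20 and 7.91 kb in HFD males and 6.6, 5.4 and 6.91 kb in LFD males (1.90 kb), while Insig1 was lower, at 5.6, 4.8 and 5.6 kb with HFD and 7.4, 6.8 and 6.6 kb with LFD (−1.60 kb).

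Counts of genes whose groups did not overlap are set beside those of all genes. In males they were 2 of 35 (5.71%) against 5.54% for H3K27ac and 7 of 35 (20%; Elovl5, Fdft1, Lss, Scd1, Scd2 and Tm7sf2 lower with HFD, Mvd higher) against 7.88% for H3K4me1. In females they were 3 of 35 (8.57%; Acss2, Elovl6 and Mbtps1 higher) against 12.8% for H3K27ac and 1 of 35 (2.86%; Acss2 higher) against 8.77% for H3K4me1. In recipients they were 10 of 35 (28.6%; 8 higher with HFD, Cyp51 and Fdft1 lower) against 24.3% for diet with HFB, and 7 of 35 (20%; 6 higher, Elovl6 lower) against 14.9% for diet with LFB. For bacteria they were 5 of 35 (14.3%) against 13.8% with HFD and 2 of 35 (5.71%; Elovl6 and Idi1 lower with HFB) against 7.05% with LFD.

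Single regions found in all libraries of a group but absent from its counterpart were rare at these loci, as they were among all regions. In males they were 1 of 122 H3K27ac regions (0.82%, against 0.648% of all regions) and 1 of 158 H3K4me1 regions (0.633% against 0.550%). In females they were 1 of 127 H3K27ac regions (0.787% against 0.901%) and 0 of 158 H3K4me1 regions (0% against 0.680%). In recipients they were 2 of 182 for diet with HFB (1.1% against 3.08%) and 2 of 163 for diet with LFB (1.23% against 1.19%). For bacteria they were 0 of 172 with HFD (0% against 1.68%) and 1 of 169 with LFD (0.592% against 0.674%). A single region cannot reach an exact p below 0.1 with 3 libraries against 3, so none was tested.

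The nearest edge of these regions, on mm9 with GENCODE vM1 genes, was 9.1 kb or more from the start of the gene, and the distances that follow are to the middle of the region. In males chr8:124950001-124951600, H3K27ac with HFD only, was 16.5 kb downstream of the start of Mvd and over an exon of Cyba, and chr10:76015601-76017600, H3K4me1 with LFD only, was 22.3 kb downstream of the start of Lss and over an exon of Lss. In females chr11:120695001-120696800, H3K27ac with HFD only, was 10 kb upstream of Fasn in an intron of Ccdc57. In recipients the flank of Ggps1 held H3K27ac in HFD libraries only with both kinds of bacteria, at chr13:14136001-14137000 with HFB and chr13:14134601-14137200 with LFB, 19.2 and 19.8 kb downstream of the start and between protein-coding genes. The other 3 were chr11:84130201-84132200 in an intron of Acaca, in HFDLFB and not LFDLFB, chr14:63777201-63779800 over an exon of Fdft1, in LFDHFB and not HFDHFB, and chr14:63780201-63781800 in an intron of Fdft1, in LFDLFB and not LFDHFB.

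HNF4a, a nuclear receptor that maintains intestinal epithelial identity and controls many genes of lipid handling, was mapped in males. At the 35 loci there were 89 merged sites, of which 23 were in all 4 libraries (25.8%, against 17.2% of all 49525 sites). Of these 23, 13 lay in introns, 6 overlapped an exon and 4 lay between protein-coding genes. A site in all 4 libraries was found at 13 of 35 loci, against 20.8% of all 25334 placed genes. Those include genes with counts too low to be tested, whereas the 35 were all tested, and the share of tested genes was not computed. Elovl6, the elongase of palmitate, had 4, Dhcr7, the last enzyme of cholesterol synthesis, and Mbtps1 had 3 each, Acly, Scd1 and Tm7sf2 had 2 each, and Acss2, Fads2, Fasn, Hsd17b7, Scd2, Srebf2 and Stard4 had 1 each. Longer loci have more room for sites, which was not adjusted for.

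Within 1 kb of the start a site was in all 4 libraries for 2 of 35 genes (5.71%), Dhcr7 and Hsd17b7. The same held for 6.58% of genes tested and 4.39% of all genes. The middles of both Scd1 sites lay 17.9 and 18.9 kb downstream of the start, inside the H3K27ac region present in all 23 libraries. Sites seen in both libraries of a single diet were 3 of 89 (3.37%, against 5.03% of all sites), with Ggps1 and Srebf2 in LFD and Mbtps1 in HFD.

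Of the sites in all 4 libraries, 3 are printed. The Dhcr7 site, 0.5 kb upstream of its start and over an exon of the neighbouring gene Nadsyn1, is given as the promoter site. The Scd1 site 17.9 kb downstream is given as a site in the H3K27ac region present in all 23 libraries. An intronic site is given for Elovl6, the gene with the most sites. The plus strand of mm9 is given, and capitals mark CAAAGNNCA, a core of the HNF4 motif, on either strand (TGNNCTTTG when reversed).
Dhcr7, chr7:151008433-151008707: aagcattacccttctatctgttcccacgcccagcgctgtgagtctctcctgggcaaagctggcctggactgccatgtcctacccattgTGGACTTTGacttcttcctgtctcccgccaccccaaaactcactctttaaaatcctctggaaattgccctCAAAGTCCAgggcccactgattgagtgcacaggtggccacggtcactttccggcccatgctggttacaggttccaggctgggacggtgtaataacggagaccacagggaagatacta
Scd1, chr19:44464120-44464402: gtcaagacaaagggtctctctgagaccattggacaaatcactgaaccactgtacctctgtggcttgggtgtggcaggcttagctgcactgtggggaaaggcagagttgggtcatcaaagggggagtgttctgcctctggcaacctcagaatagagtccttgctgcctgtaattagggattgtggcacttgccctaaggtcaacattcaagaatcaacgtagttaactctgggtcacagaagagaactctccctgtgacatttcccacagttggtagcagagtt
Elovl6, chr3:129285422-129285687: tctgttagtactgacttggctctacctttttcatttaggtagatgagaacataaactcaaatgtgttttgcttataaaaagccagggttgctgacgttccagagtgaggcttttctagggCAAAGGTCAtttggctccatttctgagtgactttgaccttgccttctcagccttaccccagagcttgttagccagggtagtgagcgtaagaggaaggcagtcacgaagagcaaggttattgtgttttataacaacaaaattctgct
The core was in 9 of the 23 sites (39.1%), against 40.1% of all sites present in 4 libraries. It was found 2 times in the Dhcr7 site, 1 time in the Elovl6 site and not in the Scd1 site, and in the promoters of 4 of the 35 genes (11.4%, Cyp51, Fdft1, Dhcr7 and Elovl6) against 5.2%.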

How the data were processed

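The authors' counts per gene, as deposited, were raw read counts made from STAR 2.5 alignments to mm9 with featureCounts 1.5.0-p1; whether strand was used is not given in the sources used here, so genes that overlap on opposite strands cannot be told apart. The deposited peak lists hold start and end positions only, called by the authors in each library with SICER (histone marks) or HOMER (HNF4a) after Bowtie 0.12.8 alignment and removal of duplicates with Picard 1.110, with no score or height. Of 84 samples, 51 had counts or a peak list, and the 33 input samples were not used.

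Counts were fitted with edgeR 4.0.16 (quasi-likelihood, TMM, filterByExpr, R 4.3.3), all 12 libraries and 4 groups in 1 fit, with Benjamini-Hochberg adjustment over the 15893 genes and a threshold of 0.05. Two-sided p-values from edgeR, DESeq2 1.42.0 and limma 3.58.1 come from fits over all genes. DESeq2 was run without filterByExpr, so its counts are of 19442 genes. CPM used TMM library sizes. Covered lengths were fitted with limma (empirical Bayes with trend) over 16548 to 19528 genes covered in at least 3 libraries. Merged regions shared at least 1 bp. Sequences were read from NCBIM37 (mm9), and exon lengths and annotation from GENCODE vM1. The members and gene lists were chosen with earlier results of these data known; lead genes were fixed with them, and genes beyond these were named where a count or a lack of overlap singled them out. On counts simulated for HFDLFB against LFDLFB over 15893 genes, edgeR recovered 15 of 67 genes changed by 2-fold, 46 of 67 by 4-fold and 58 of 66 by 8-fold, with 5 false calls. Alternatives were another test, scaling, filter, window, a fit with the replicate number as block, and single libraries removed in turn. Some items are not reported here.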

Additional observations from a re-analysis of the deposited data

How the results depend on the processing

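Over the alternatives tried, the number of these genes called was 0 in edgeR for all 6 expression comparisons under each alternative scaling, filter and sample choice. DESeq2 called 1, Scd1 in HFDHFB against LFDHFB (−3.57), among 126 of 19442 genes. At an unadjusted p below 0.001 in DESeq2 the count was again 1, among 177 of 19442 genes. With the adipocyte marker level in the fit, Scd1 went from −2.68 to near 0 (0.02, SE 0.59) in HFDHFB against HFDLFB. In HFDLFB against LFDLFB it changed sign, from 0.70 to −2.09. LFDHFB replicate 3 decided the size of Scd1: without it HFDHFB minus LFDHFB was −1.60, HFD minus LFD −0.45 and the interaction −2.30, against ranges over all libraries left out of −4.32 to −1.60, −1.82 to −0.45 and −5.00 to −2.30. Without it LFDHFB minus LFDLFB went from 1.55 to −0.38 (range −0.38 to 2.09). Without HFDLFB replicate 2, HFDLFB minus LFDLFB went from 0.70 to near 0 (−0.05, range −0.05 to 1.18).

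For covered length in HFDHFB against LFDHFB, Elovl5 differed by 10.47 kb and Scap by 7.4 kb without HFDHFB replicate 1. In that fit the lone library left was assumed to vary like the others, so calls from it are not counted. Without flanks Ggps1 in HFDLFB against LFDLFB was −0.2 kb, and with flanks of 50 kb Cyp51 in HFDHFB against HFDLFB was 0.2 kb. The HNF4a sites at these loci were 56 in place of 89 without flanks. The causes were not tested.

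With the replicate number as a replicate block, 0 of these genes were called in every comparison. Of 18 pairs of RNA libraries with the same number, 6 had deviations from their group means correlated over 0.1 (r over the 18 from −0.59 to 0.45). Pairs with different numbers reached similar sizes, such as 0.65 for LFDHFB replicate 3 with LFDLFB replicate 2. HFDHFB replicate 1 with LFDHFB replicate 3 gave −0.55. Deviations from means of 3 libraries cannot decide whether equal numbers pair the samples, and the labels do not say. At this spread a 2-fold change was mostly not recovered in simulation, and no count of 0 calls here shows a gene to be unaltered.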
